A study of Homo sapiens with 4 samples.

Results

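Cytosolic ribosomal protein genes encode the proteins that, with ribosomal RNA, form the small (40S) and large (60S) subunits of the ribosome. They were taken as the rows of the count table whose symbol is RPL or RPS followed by a number, with or without a suffix, together with RPLP0, RPLP1, RPLP2 and RPSA. Pseudogenes, S6 kinases and Y-linked forms were left out. Of 85 such rows, 81 had at least 10 counts in at least 2 libraries, out of 14024 genes that passed this minimum and 26364 rows in all. The 81 genes comprised 41 of the 60S subunit, 31 of the 40S subunit, 4 of the stalk at the base of which translation factors bind, and 5 "like" forms, which are paralogues of a named subunit gene. The 4 rows below the minimum were RPL21 and RPL10L, at 0 counts in every library, RPL39L, with 1 count in all, and RPL3L, with 3 counts in all.

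RNA-seq was performed on 4 libraries of 2 human colorectal cancer cell lines, SW480 and SW620, with 1 knockdown and 1 control library per line. SHMT2 is the mitochondrial serine hydroxymethyltransferase, which turns serine into glycine and passes on a one-carbon unit. Knockdown was driven by an shRNA under doxycycline control. The control cells carry only the label control and are called control shRNA cells in the study's text. The methods give the sequence of a single SHMT2 hairpin while the blots used more than one, and neither the hairpin of these libraries nor any doxycycline in the controls is stated in the sources used here. The labels describe Illumina TruSeq libraries, while the study's text names an Agilent platform, and the values are whole-number read counts. The 4 libraries held 5530129 to 13774288 counts. No label says that a condition was repeated within a line, so the p-values below rest on 4 libraries, with 1 residual degree of freedom per gene and a dispersion shared across genes. All adjusted p-values come from edgeR's quasi-likelihood test with terms for cell line and treatment and Benjamini-Hochberg adjustment over the 14024 genes.

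Ribosomal proteins are needed in nearly equal numbers, and their mRNAs belong to the most abundant of growing cells. Most of these mRNAs start with a C followed by a run of pyrimidines, the 5′ terminal oligopyrimidine (TOP) tract, through which mTOR signalling controls their translation. Some proteins also act outside the ribosome: RPL5 and RPL11, for instance, bind the p53 regulator MDM2 when ribosome assembly fails.

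The starts of 9 genes are shown here because they include large differences between the cell lines and both members of 2 paralogue pairs. Each sequence holds 15 bases before and 15 bases from the transcription start annotated by RefSeq on GRCh38.p14, 5′ to 3′ on the strand of the gene. Capitals mark the unbroken run of pyrimidines that begins at the start.
RPL41 (chr12:56116618-56116647, plus strand): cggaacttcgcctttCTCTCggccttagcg
RPS24 (chr10:78033848-78033877, plus strand): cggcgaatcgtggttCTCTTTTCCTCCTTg
RPL12 (chr9:127451392-127451421, minus strand): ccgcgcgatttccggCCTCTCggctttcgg
RPLP0 (chr12:120201097-120201126, minus strand): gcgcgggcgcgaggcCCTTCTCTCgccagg
RPSA (chr3:39406705-39406734, plus strand): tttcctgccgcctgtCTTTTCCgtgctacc
RPL22 (chr1:6199581-6199610, minus strand): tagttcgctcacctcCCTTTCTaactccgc
RPL22L1 (chr3:170870181-170870210, minus strand): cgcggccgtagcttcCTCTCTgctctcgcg
RPS27 (chr1:153990747-153990776, plus strand): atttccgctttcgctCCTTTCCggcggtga
RPS27L (chr15:63157463-63157492, minus strand): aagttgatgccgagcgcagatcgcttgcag

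RPS24 had the longest run of the 9, with 14 pyrimidines, and RPL41 the shortest of those that began with C, with 5. RPL22 and its like form RPL22L1 both opened with a C and at least 4 further pyrimidines, whereas RPS27 did and its like form RPS27L did not. Of the 81 genes, 66 had a promoter in the RefSeq table used, and 42 of these (63.6%) opened with a C and at least 4 further pyrimidines at the annotated start, against 4.07% of all 35116 promoters. When such a run was accepted anywhere from 10 bases before to 20 bases after the start, it was found in 86.4% of the 66 and in 39.2% of all promoters. The letters CCGGAAG, the core bound by ETS-family factors, stood on either strand of the 300 bases around the start in 34.8% of the 66 and in 10.3% of all promoters. RPL7L1, RPL26L1, RPL36AL and RPS27L, that is 4 of the 5 like forms, lacked the TOP-like start. A match of letters is a description and not evidence that a factor binds.

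SHMT2 itself was measured first as a check of the labels. Levels are given as CPM, the counts normalised to the TMM-scaled library size. SHMT2 had 277 CPM in the control and 30.9 CPM in the knockdown library of SW480, and 688 and 47.6 CPM in those of SW620. The knockdown cells thus kept 11.2% of the SHMT2 level of their control in SW480 and 6.95% in SW620, with an edgeR adjusted p of 1.06e-167 for the 2 lines together. Of 10 epithelial markers, 8 passed the count minimum, and all 10 summed to 5399 to 10497 CPM. The keratins KRT8 and KRT18 were abundant in both lines, whereas villin (VIL1) had 2 and 1 counts in the SW480 libraries and 2029 and 5105 in the SW620 libraries, CDX1 had 0 in every library, and LGALS4 had at most 8. Of 11 markers of blood, stromal, endothelial, liver and muscle cells, 8 stayed under 10 counts in every library and CD3E was at 0 throughout, with sums of 16.5 to 37.3 CPM. In such bulk samples, a change in the cells that make up a culture and a change in RNA per cell cannot be told apart.

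In SW480, ribosomal protein genes took 6.74% of all counts in control cells and 7.31% in knockdown cells. In SW620 the share was 7.30% in control and 7.50% in knockdown cells. The exact 95% binomial intervals were at most 6.76% at the top in control SW480 cells and at least 7.28% at the bottom in control SW620 cells, and they cover counting error only. Control SW480 cells therefore had the lowest share of the 4 libraries, and no interval of the other 3 reached it.

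**Figure D1:**
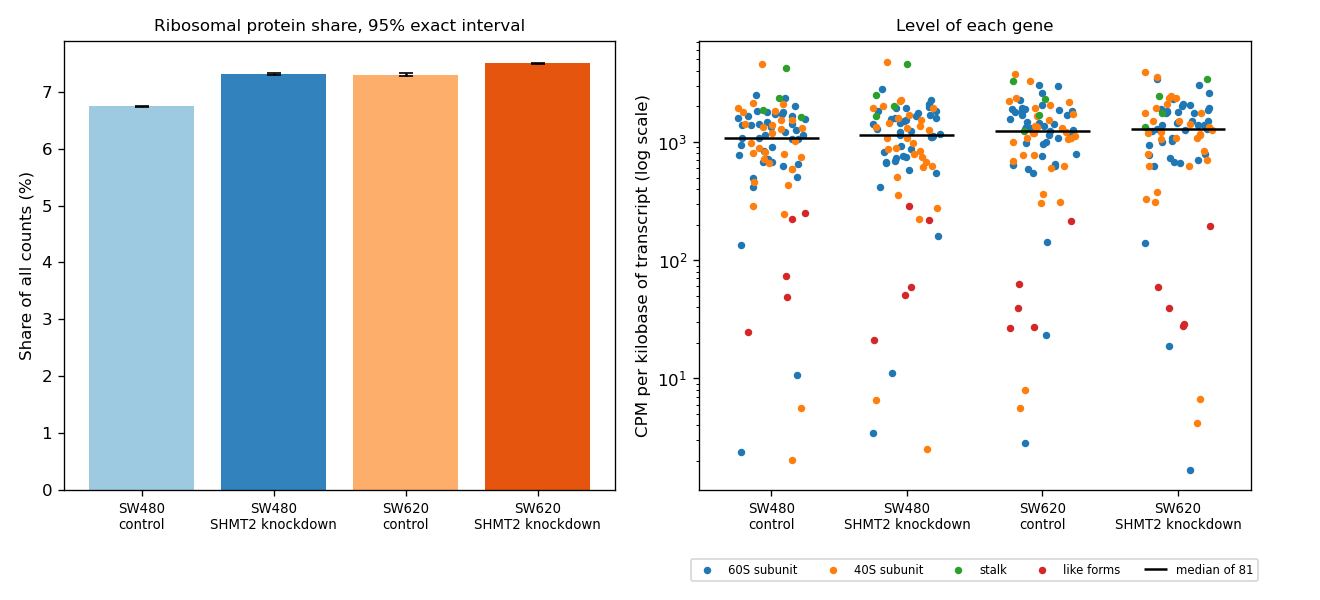
Left, the share of all counts that fell in ribosomal protein genes in each library (percent, bars from 0, error bars are exact 95% binomial intervals). Right, the level of each of the 81 genes in CPM per kilobase of transcript on a log scale, coloured by class, with the median of all 81 as a black line; most genes lie near the median, between 1081 and 1279 in the 4 libraries, and a few 60S, 40S and like genes lie far under it.

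The genes were far from equal in level. Compared per kilobase of transcript, their median was 1081 and 1143 CPM per kilobase in the control and knockdown libraries of SW480, and 1248 and 1279 in those of SW620. The median over all tested genes was between 14.1 and 14.2 CPM per kilobase in the same libraries. RPS2, a 40S protein near the channel through which mRNA enters, ranked first of the 81 in every library by length-scaled level, with 4546 and 4779 CPM per kilobase in the control and knockdown cells of SW480 and 3720 and 3898 in those of SW620. RPLP0, the scaffold of the stalk, followed with a mean of 3847 CPM per kilobase over the 4 libraries. RPS24 (2650), RPL26 (2636) and RPL30 (2479), given as the same mean, completed the upper 5.

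At the lower end stood a few core genes and the like forms. RPL17 had 16, 16, 11 and 16 counts in control SW480, knockdown SW480, control SW620 and knockdown SW620 cells, and RPS10 had 13, 11, 20 and 37 in the same order. RPL36A had 71, 51, 87 and 173 counts. Their products are parts of every ribosome, yet their rows were far below those of most partners in the same subunit. Rows for the read-through transcripts RPL17-C18orf32, RPS10-NUDT3 and RPL36A-HNRNPH2, which overlap these genes, were at 0 in every library, as was RPL21. How reads that match several genes were counted is not given in the sources used here, so the level of these rows is uncertain. The like forms were lower than their partners per length in the pairs RPL22 and RPL22L1, RPS27 and RPS27L, RPL26 and RPL26L1, and RPL7 and RPL7L1, and the reverse held for RPL36AL against the low row of RPL36A.

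After SHMT2 knockdown, none of the 81 ribosomal protein genes passed the threshold of an adjusted p under 0.05. Of all tested genes 1.66% did. Of the 1189 genes outside the family that were at least as abundant as the 10th percentile of the 81, 4.29% did. At such shares few of 81 genes would pass, so the count of 0 says little by itself. The 1189 are called genes of like abundance below, but the set has a lower bound only and was not matched to the 81. The fitted log2 fold changes lay between -0.16 for RPS27L and 0.21 for RPS18, with a median of 0.05, compared with 0.01 over all tested genes. For 77 of the 81 genes (95.1%) the 95% interval stayed within a 1.5-fold change in either direction. It did so for 60.2% of all tested genes and for 95.3% of the 1189 genes of like abundance. Among the members whose interval went past 1.5-fold were RPL17, RPS10 and RPL36A, all low rows. Thus changes above 1.5-fold lay outside the intervals of nearly every ribosomal protein gene.

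**Figure D2:**
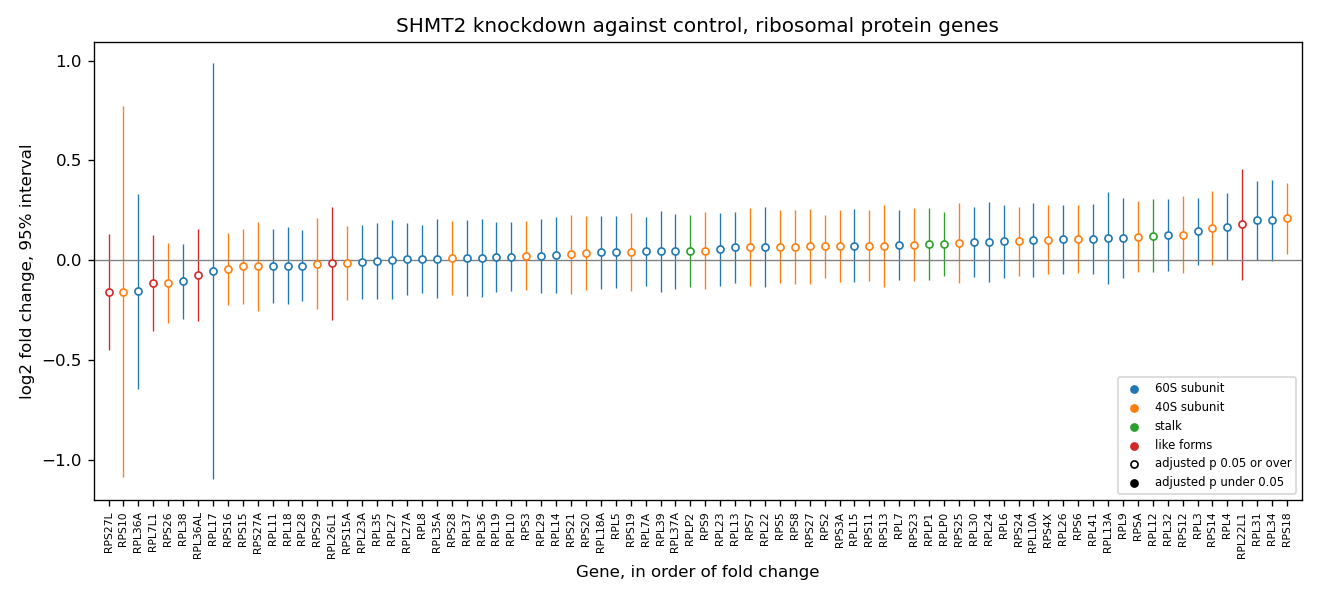
Log2 fold change of SHMT2 knockdown against control for 80 of the 81 genes (y axis), in order of size (x axis), with 95% intervals from the edgeR fit over both lines. Colours mark the class, open points an adjusted p of 0.05 or over; every point is open, and the longest bars belong to RPL17, RPS10 and RPL36A.

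At an unadjusted p under 0.05, RPS18, RPL31 and RPL4 were counted, all of them higher in knockdown cells. This is 3 of 81 genes (3.70%), and it compares with 9.06% of all tested genes in either direction and 4.15% that were higher, so that it is not above the background. RPS18, a protein of the 40S head, had 1084 CPM in control and 1203 in knockdown SW480 cells, and 1222 CPM in control and 1473 in knockdown SW620 cells. Its knockdown libraries were above the controls in both lines, with a log2 fold change of 0.21 ± 0.09 (SE) and an edgeR adjusted p of 0.35.

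RPL31, near the exit of the peptide tunnel, had 402 and 460 CPM in control and knockdown SW480 cells and 499 and 575 CPM in those of SW620. RPL4, which lines that tunnel, had 2161 and 2369 CPM in SW480 and 2219 and 2558 CPM in SW620. Both were higher in the knockdown library of each line, by 0.20 ± 0.10 and 0.17 ± 0.08 on the log2 scale (SE), and the edgeR adjusted p was 0.54 for each. RPL34, RPS14, RPL3, RPL32, RPL12, RPSA and RPS12 came next in order of p. Their log2 fold changes were between 0.12 and 0.20, with edgeR adjusted p-values between 0.56 and 0.83, and all 7 were higher than the control in both lines.

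In knockdown cells, 44 of the 81 genes (54.3%) were higher than the control in both lines, against 27% of all tested genes and 24.1% of those of like abundance. Lower in both lines were 7 genes (8.64%), against 24.7% and 31.7%. Neither count of signs was recomputed under other scalings. The 7 lower genes were RPL11, RPL18, RPL36AL, RPL38, RPL7L1, RPS15 and RPS16. The lowest value among them was that of RPL7L1, a paralogue of RPL7, with 92.9 and 79.8 CPM in control and knockdown SW480 cells and 150 and 148 CPM in those of SW620 (log2 fold change -0.11 ± 0.12, SE). This difference was smaller than its error.

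Within SW480, the median log2 difference between knockdown and control was 0.07, with 63 genes above 0 and 18 below. Within SW620 it was 0.03, with 55 above and 26 below. The 1189 genes of like abundance had a median of -0.06 within SW480 and of 0.02 within SW620. By counting error alone, 51 of the 81 genes (63.0%) differed in SW480, against 30.7% of all tested genes and 64.3% of those of like abundance. In SW620 36 (44.4%) did, against 26.3% and 57.2%. Higher past counting error in both lines were 22 of the 81 (27.2%), against 3.13% of all tested genes and 9.17% of those of like abundance, and lower in both were 0, against 4.39% and 15.5%. In 3 of the 81 (3.70%) the change was past counting error in both lines but in opposite directions, against 3.86% and 14.7%. Counting error does not include the spread between cultures, and whether the knockdown acted differently in the 2 lines was not tested, since that difference leaves no residual degree of freedom.

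Split by class, the median log2 fold change was 0.04 for the 60S genes, 0.07 for the 40S genes and 0.08 for the stalk. It was -0.07 for the 5 like forms, of which only RPL22L1 was above 0, at 0.18 ± 0.14 (SE). RPLP0 had 3570 and 3841 CPM in control and knockdown SW480 cells and 2750 and 2864 CPM in those of SW620, and the other stalk genes RPLP1, RPLP2 and RPL12 were likewise higher in both lines, by 0.05 to 0.12 on the log2 scale over both. RPL5 and RPL11, which form a particle with the 5S RNA, had log2 fold changes of 0.04 and -0.03. RPS6, the substrate of S6 kinase, had 1488 and 1623 CPM in SW480 and 1852 and 1969 CPM in SW620, a log2 fold change of 0.11 ± 0.09 (SE, edgeR adjusted p = 0.87). RPS27A, made as a fusion with ubiquitin, had a log2 fold change of -0.03, and FAU, a fusion gene outside the naming rule, had -0.02.

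The 42 genes with a TOP-like start had a median log2 fold change of 0.07 after knockdown, and the 24 without one had 0.02. Members without a promoter in the table used are in neither group. The 24 include the like forms RPL7L1, RPL26L1, RPL36AL and RPS27L and the low row RPL17. The 42 include RPL22L1 and the low rows RPS10 and RPL36A. The part of these genes in the gap was not tested. Among 22 other genes with TOP mRNAs, such as EEF1A1, the main elongation factor that brings tRNA to the ribosome, the median was 0.09. Of these 22 genes 0 passed the test, against 1.66% of all tested genes, which says little for so short a list. EEF1A1 itself had 10162 and 12314 CPM in control and knockdown SW480 cells and 11210 and 12704 CPM in those of SW620. It was higher in both knockdown libraries, with a log2 fold change of 0.23 ± 0.07 (SE) that did not pass the test (edgeR adjusted p = 0.075).

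The genes that make and regulate ribosomes were read in the same fit, in which 1.66% of all tested genes passed after knockdown. At that share, lists of this size hold few such genes, so a count of 0 says little about a list. Of 61 ribosome biogenesis factors, 0 passed the test, with a median of -0.04 over both lines, which combined -0.20 in SW480 and 0.08 in SW620. Of 17 genes of RNA polymerase I, which transcribes ribosomal RNA, and of 7 escorts of newly made ribosomal proteins, 0 passed, and both medians were -0.01. RACK1, a 40S protein outside the naming rule and listed as GNB2L1, had a log2 fold change of 0.13 ± 0.09 (SE, edgeR adjusted p = 0.76). Of 76 mitochondrial ribosomal protein genes, 0 passed, with a median of -0.06. Among 19 genes of mTOR and S6 kinase signalling, 1 fell and 0 rose, with a median of 0.06. The gene that fell was RPS6KB1, the S6 kinase that phosphorylates RPS6. It had 92.6 and 60.5 CPM in control and knockdown SW480 cells and 50.6 and 33.1 CPM in those of SW620. Both knockdown libraries were below their controls, with 65.4% of the control level left in SW480 and 65.5% in SW620 (log2 fold change -0.61 ± 0.13, SE, edgeR adjusted p = 0.00105). Among the epithelial markers measured beside these genes, KRT8 and KRT18 fell with knockdown (log2 fold changes of -0.34 each) and CDH1 rose by 0.45, and their part in the ribosomal protein values was not tested.

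The comparison of SW620 with SW480 asked whether 2 lines, which the knockdown effect is averaged over, expressed the family alike. Between them 47 of the 81 ribosomal protein genes passed the test (58.0%). Of all tested genes 63.6% did, and of the 1189 other genes of like abundance 70.6%. Higher in SW620 were 36 genes (44.4%), against 32.3% of all tested genes and 42.3% of those of like abundance. The share of higher genes was thus near that of genes of like abundance. Lower were 11 (13.6%), against 31.3% and 28.3%. The lower genes were RPL8, RPL9, RPL12, RPL13, RPL22L1, RPL28, RPL30, RPLP0, RPS2, RPS27L and RPSA. The median log2 fold change was 0.16, compared with 0.01 over all tested genes and 0.09 over the 1189 other genes of like abundance. A called change of over 1.5-fold was found in 15 of the 81 (18.5%), against 46.9% of all tested genes and 35.9% at like abundance. In 52 genes (64.2%) both SW620 libraries were above both SW480 libraries, against 40.7% of all tested genes and 48.2% at like abundance. In 19 (23.5%) both were below, against 39.6% and 35.4%.

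**Figure D3:**
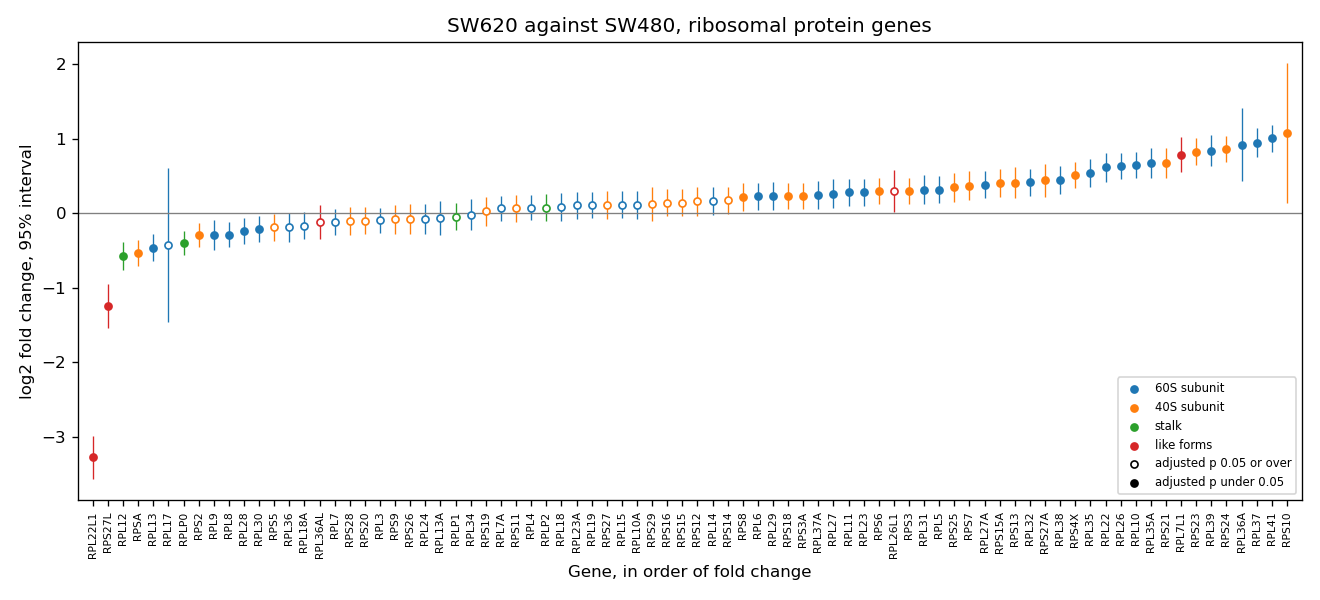
Log2 fold change of SW620 against SW480 for 80 of the 81 genes (y axis), in order of size (x axis), with 95% intervals from the edgeR fit. Colours mark the class and filled points an adjusted p under 0.05; RPL22L1 at -3.28 and RPS27L at -1.25 stand apart from the rest, and RPS10 at 1.08 has the widest interval of the called genes.

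In the 60S subunit 20 genes were higher in SW620, 5 were lower and 16 did not pass the test, with a median of 0.17. In the 40S subunit 15 were higher, 2 were lower (RPS2 and RPSA) and 14 did not pass, with a median of 0.22. In the stalk 2 of the 4 genes, RPL12 and RPLP0, were lower, while 31.3% of all tested genes were. RPLP1 (-0.05) and RPLP2 (0.07) did not pass, and the median of the 4 was -0.22. Of the like forms, RPL7L1 was higher, RPL22L1 and RPS27L were lower, and RPL26L1 and RPL36AL did not pass.

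The largest difference of all was that of RPL22L1. It had 136 CPM in control and 157 CPM in knockdown SW480 cells, and 14.5 CPM in control and 15.8 CPM in knockdown SW620 cells, from 1304, 1042, 79 and 212 counts. It was therefore 9.71-fold lower in SW620, with a log2 fold change of -3.28 ± 0.15 (SE, edgeR adjusted p = 3.8e-105). Its partner RPL22, a 60S protein whose place the like form can take, ran in the opposite direction. RPL22 had 342 and 376 CPM in SW480 and 550 CPM in both SW620 libraries, and was 1.53-fold higher in SW620 (log2 fold change 0.62 ± 0.10, SE, edgeR adjusted p = 5.51e-09). Per kilobase of transcript, RPL22L1 reached 50.4% and 53.2% of RPL22 in control and knockdown SW480 cells, and 3.35% and 3.64% in those of SW620. Both genes showed their difference in control and knockdown cells alike.

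RPS27L, the like form of the 40S protein RPS27 and a known target of p53, was lower as well. It had 59.2 and 48.0 CPM in control and knockdown SW480 cells and 22.0 and 22.5 CPM in those of SW620, a 2.37-fold difference (log2 fold change -1.25 ± 0.15, SE, edgeR adjusted p = 4.62e-16). RPS27 had 745 and 816 CPM in SW480 and 840 and 844 CPM in SW620, with a log2 fold change of 0.11 that did not pass the test (edgeR adjusted p = 0.30). The SW480 and SW620 libraries did not overlap for either gene, but the gap of RPS27 was within its error.

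**Figure D4:**
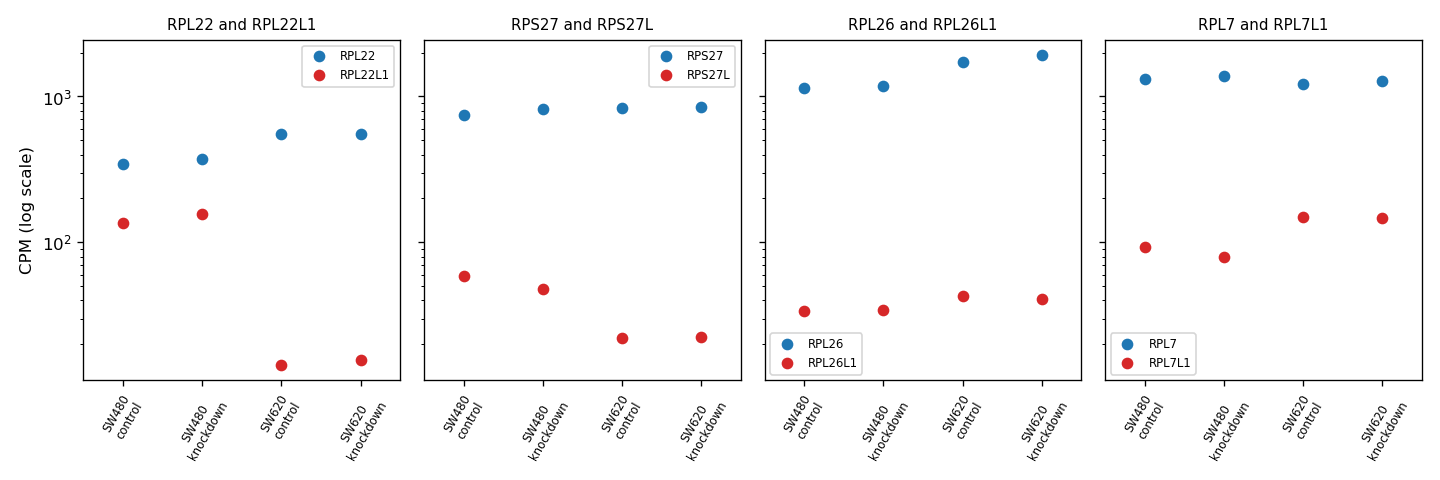
Levels of 4 ribosomal protein genes (blue) and their like forms (red) in the 4 libraries, in CPM on a log scale, 1 point per library. RPL22L1 drops from 136 and 157 CPM in SW480 to 14.5 and 15.8 CPM in SW620 while RPL22 is higher there, and RPL7L1 is the only like form shown that passed the test as higher in SW620.

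RPL7L1, unlike RPL22L1 and RPS27L, was higher in SW620. It had 92.9 and 79.8 CPM in control and knockdown SW480 cells and 150 and 148 CPM in SW620 (log2 fold change 0.79 ± 0.12, SE, edgeR adjusted p = 5.13e-10), while RPL7 had 1319, 1390, 1218 and 1287 CPM in the same order and did not pass. RPL26, a protein at the tunnel exit, was 1.56-fold higher in SW620, with 1142 and 1183 CPM in SW480 and 1712 and 1910 CPM in SW620. Its like form RPL26L1 had 33.7, 34.7, 43.1 and 41.1 CPM, was higher in both SW620 libraries and missed the threshold (log2 fold change 0.30 ± 0.15, SE, edgeR adjusted p = 0.062). RPL36AL had 166, 164, 160 and 146 CPM and did not differ beyond its error. The partners RPL39 and RPL10 had like forms below the count minimum, and so did RPL3.

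RPL41, a 60S peptide that is one of the smallest human proteins, had 817 and 937 CPM in control and knockdown SW480 cells and 1748 and 1770 CPM in those of SW620. Both SW620 libraries were above both SW480 libraries, by 2.01-fold (log2 fold change 1.01 ± 0.09, SE, edgeR adjusted p = 2.27e-27). RPL37 had 493, 481, 922 and 960 CPM in the same order, 1.93-fold higher in SW620. RPL39, which sits in the wall of the peptide tunnel, had 272 and 269 CPM in SW480 and 468 and 502 CPM in SW620, a 1.79-fold difference. RPS21 (1.60-fold) and RPL35A (1.59-fold), the latter mutated in some patients with Diamond-Blackfan anaemia, followed. By mRNA length, the median log2 fold changes were 0.20, 0.14 and 0.11 for the shortest, middle and longest genes, in 3 groups of 26 to 28. Across the 81 genes, Spearman's rho was -0.11 with length and -0.25 with the GC content of an annotated transcript. Over 13222 tested genes these values were -0.04 and -0.11. The 81 genes are not independent replicates, and the part of length or GC content was not tested.

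RPS24 and RPS23 were the large differences of the 40S subunit. RPS24, also a Diamond-Blackfan anaemia gene, had 1061 and 1132 CPM in control and knockdown SW480 cells and 1926 and 2061 CPM in those of SW620 (log2 fold change 0.86 ± 0.09, SE, edgeR adjusted p = 4.08e-21). RPS23, which sits at the decoding centre, had 696 and 727 CPM in SW480 and 1222 and 1304 CPM in SW620 (log2 fold change 0.83 ± 0.09, SE, edgeR adjusted p = 6.55e-18). The low rows RPS10 and RPL36A also passed as higher, by 1.08 ± 0.48 and 0.92 ± 0.25 on the log2 scale (SE, edgeR adjusted p-values of 0.040 and 0.00049). RPS10 did not pass under 5 alternatives, the DESeq2 test, library totals, upper quartile scaling, no filter and equal depth. With the 50-count filter RPS10 was left out and not tested. RPL36A did not pass under DESeq2. RPS6, RPL5 and RPL11 were all modestly higher in SW620, by 1.23-fold, 1.25-fold and 1.22-fold.

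On the lower side of SW620, RPL12 at the base of the stalk had 1045 and 1147 CPM in control and knockdown SW480 cells and 707 and 764 CPM in SW620. It was 1.49-fold lower, with a log2 fold change of -0.58 ± 0.09 (SE, edgeR adjusted p = 3.73e-09). RPSA, a 40S protein also known as the laminin receptor precursor, had 1466 and 1606 CPM in SW480 and 1021 and 1099 CPM in SW620, and was 1.45-fold lower (log2 fold change -0.53 ± 0.09, SE, edgeR adjusted p = 1.3e-08). RPL13 was 1.38-fold lower, RPLP0 1.32-fold and RPS2 1.22-fold. RPS2, the most abundant member in each library, was thus among the few that were lower in SW620. Beside the fall of RPSA, the row of its pseudogene RPSAP58 had 65 and 53 counts in SW480 and 859 and 2144 counts in SW620. Reads that match both cannot be assigned with certainty, and the part of RPSAP58 in the value of RPSA was not tested. All 31 pseudogene rows of the family together held 0.0969% to 0.296% of the counts of genes and pseudogenes combined.

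Genes of the family lie scattered over 20 chromosomes, so each was set beside the tested protein-coding genes within 10 Mb of it that are not members. The 4 genes on the X chromosome, RPL10, RPL36A, RPL39 and RPS4X, were all called higher in SW620, against 32.3% of all tested genes. RPL36A is a low row that did not pass under DESeq2. The median log2 fold change of the 4 was 0.75, and that of the 391 other tested protein-coding genes of that chromosome was 0.66. The share of those genes called higher was not computed. RPL10, which joins the 60S subunit as one of its last proteins, had 1175 and 1199 CPM in SW480 and 1855 and 1866 CPM in SW620, and RPS4X had 1201 and 1365 CPM in SW480 and 1814 and 1842 CPM in SW620. The 4 genes on chromosome 8, RPL7, RPL8, RPL30 and RPS20, all had negative values with a median of -0.16. The 411 other tested protein-coding genes there had -0.41. RPL8, at the peptidyl transferase centre, had 2018 and 1924 CPM in SW480 and 1569 and 1661 CPM in SW620. The 12 genes on chromosome 19 had a median of -0.07, with 905 other tested protein-coding genes at -0.26.

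Across the 81 genes, the difference between the lines correlated with the median difference of the surrounding genes (Pearson's r 0.42, Spearman's rho 0.57). Without RPL22L1 and RPS27L, left out after their values were seen, whose surroundings had medians of -0.06 and 0.06, the values over 79 genes were 0.65 and 0.61. With the members' difference taken in control or in knockdown cells alone, r over these 79 genes was 0.61 and 0.66. The surroundings kept their values from all 4 libraries in both. Genes of 1 chromosome share their surroundings and all points share the 4 libraries, so these values describe the data and carry no p. The ribosomal protein genes lay above their surroundings in 67 of 81 cases, with a median gap of 0.27 on the log2 scale. Below stood, among others, RPL22L1, RPS27L, RPSA by 0.62 and RPL12 by 0.47. Set against the same differences of the surroundings between the lines, the members' knockdown effect gave r of -0.07. The knockdown effect of the surrounding genes was not computed. Neither these correlations nor the count of 67 was computed for other genes, so they have no background. The surroundings were tested genes of any abundance. The 1189 other genes of like abundance had a median difference between the lines of 0.09, against 0.01 over all tested genes.

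**Figure D5:**
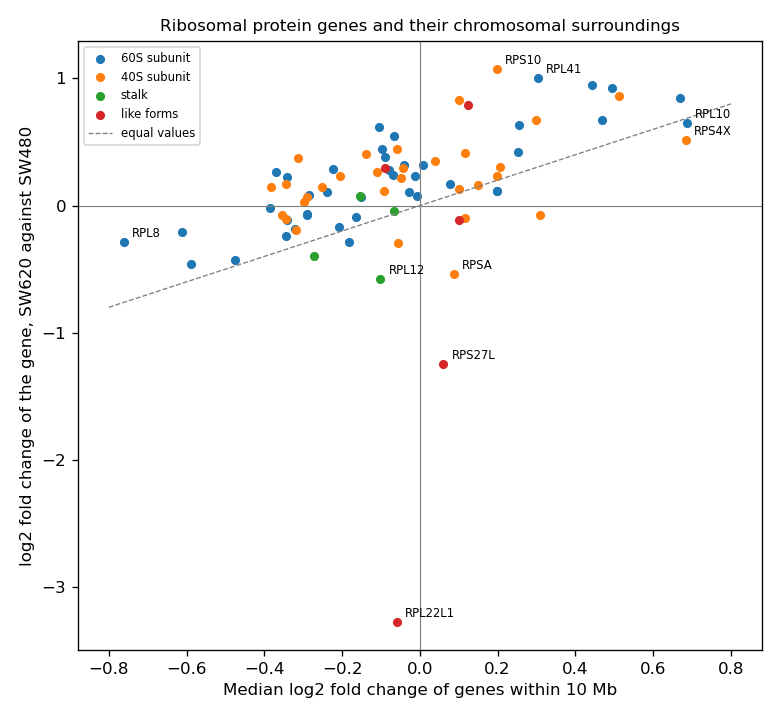
Log2 fold change of SW620 against SW480 for each of the 81 genes (y axis) against the median of the tested protein-coding genes within 10 Mb that are not ribosomal protein genes (x axis); the dashed line marks equal values. Genes with higher surroundings tend to be higher (Spearman's rho 0.57), most points lie above the line, and RPL22L1 and RPS27L lie far below it.

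The genes with a TOP-like start had a median of 0.23 between the lines (22 higher and 5 lower of 42). Those without it had 0.12 (9 higher and 3 lower of 24). Like forms and low rows were split between these groups as given for the knockdown, and their part was not tested. The median was 0.09 over the 1189 other genes of like abundance. Of all tested genes 32.3% were called higher and 31.3% lower, and of those of like abundance 42.3% and 28.3%. Of the lists beside the family, the 22 other TOP genes had 11 higher and 5 lower, the 61 ribosome biogenesis factors 26 higher and 10 lower, and the 76 mitochondrial ribosomal protein genes 35 higher and 7 lower, with medians of 0.19, 0.16 and 0.31. RNA polymerase I genes had 2 higher and 5 lower of 17, mTOR and S6 kinase genes 4 higher and 7 lower of 19, and the escorts 3 higher and 1 lower of 7. FAU and GNB2L1 were both called higher, by 0.25 on the log2 scale each. TPT1, a TOP gene that codes for a growth-related protein, was the largest difference of its list, with 2095 and 2156 CPM in SW480 and 1168 and 1082 CPM in SW620 (log2 fold change -0.92 ± 0.09, SE, edgeR adjusted p = 4.97e-24). NIP7, a factor of 60S assembly, was the largest of the biogenesis list, with 70.0 and 64.6 CPM in SW480 and 152 and 159 CPM in SW620 (log2 fold change 1.21 ± 0.12, SE, edgeR adjusted p = 3.76e-21).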

How the data were processed

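The authors deposited 1 table of read counts per gene symbol, without normalization. Per the labels, RNA was extracted with Trizol and libraries were made with the Illumina TruSeq kit. The submitters' processing notes name Bowtie 0.12.2 and hg18 without a role, and the counting program, annotation and use of strand are not given in the sources used here. The 14024 genes that reached 10 counts in 2 or more libraries were fitted with edgeR 4.0.16 (R 4.3.3; TMM; quasi-likelihood test; terms for cell line and treatment; two-sided). DESeq2 1.42.0 was an alternative. The script was tested on simulated data. The members and lists were chosen with earlier results of these data known. Genes named were those with an adjusted p under 0.05 or the 10 smallest p-values after knockdown, the 12 largest called differences between lines, the 5 highest and lowest levels per length, and fixed pairs and complexes. Other names fell outside this rule and were chosen after their values were seen, as was the comparison with surrounding genes. A prior count of 2 was added for log2 differences inside a line. Libraries were paired by cell line, from which knockdown and control of a pair come, and the deviations of the SW480 libraries correlated at 0.961 over 14024 genes. Transcript length was the median over a gene's protein-coding transcripts in GENCODE 29 (GRCh38), which matched all 81 members and need not be the authors' annotation. No lengths or positions entered the tests. Alternatives were other scalings, filters, equal depth, models without one term, and leaving out a line or treatment. Values of some individual genes are not reported here.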

Additional observations from a re-analysis of the deposited data

Results flagged for a closer look

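In 3 of the 81 ribosomal protein genes, knockdown and control differed past counting error in both lines but in opposite directions. This is 3.70% of them, against 3.86% of all tested genes and 14.7% of the 1189 other genes of like abundance, so it is not above the background. RPL27A was higher by 0.135 in SW480 and had a log2 difference of -0.123 in SW620. RPL8 had -0.0689 in SW480 and 0.0825 in SW620. RPS15A had 0.0533 in SW480 and -0.0822 in SW620. Whether the effect differed between the lines was not tested, since there is 1 library per line and condition.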

How the results depend on the processing

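No member passed the knockdown test under any of the 8 alternatives, including the model without the cell line as a block, where the count was also 0 and the median was 0.05. At an unadjusted p under 0.05 the count of members was 0 to 4, against 3 in the reported fit, with 1 by DESeq2, which gave no adjusted p for 6 members. Over all genes, the knockdown calls fell from 233 to 26 with DESeq2, 69 with a 50-count filter, 125 with library totals, 118 with the upper quartile, 7 at equal depth and 0 without the cell line. Between the lines, 37 to 47 members passed. The split was 36 higher and 11 lower, but 28 and 14 with the upper quartile and 29 and 14 with library totals. The median of 0.16 between lines became 0.139 with DESeq2 size factors or the DESeq2 test, 0.144 with the 50-count filter, 0.112 with library totals, 0.123 with no filter, 0.131 at equal depth and 0.0891 with the upper quartile, as the median of all genes moved between -0.07 and 0.01. It was 0.160 and 0.172 when each treatment was left out in turn. With library totals the median within SW480 was 0.111. Adding pseudogene rows gave a share of 7.52% in knockdown SW620 cells. Without the like forms and the members under 200 counts in every library, a choice made after seeing the data, the medians over 72 members were 0.07 for knockdown and 0.15 between lines. Of the medians over members, the counts and the named members recomputed here, none changed direction. The medians of the other gene lists were not recomputed, and the median of the biogenesis factors after knockdown differed in sign between the lines (-0.20 and 0.08).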
